A study of Mus musculus with 12 samples.

Results

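The genes described here are 52 genes of mitosis and of the G2/M transition: the cyclin-dependent kinase that starts mitosis with its cyclins and regulators, the transcription factors of the programme, mitotic kinases, spindle checkpoint and kinetochore genes, kinesins, condensins and cytokinesis genes. A gene was measured where a probe set named it alone, and the probe set with the highest mean over the 12 arrays stood for it. By this rule 51 of the 52 genes were measured, out of 12393 genes in all, and Espl1, the separase gene, was not analysed here. The tumours were C26, a mouse colon carcinoma line injected under the skin of Balb/c mice aged 6 weeks. Treatment was given on day 8 after inoculation at a tumour size of about 50 mm3, and the tumours were collected 48 h later. The first group received CP-Dox, doxorubicin attached to a chimeric polypeptide carrier, the second received Dox, the free drug, and the third received PBS, a buffered saline. There were 4 mice in a group with 1 array per tumour, and the dose is not given in the sources used here. With no carrier-only tumours analysed here, what the carrier does and what the attached drug does cannot be told apart.

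A cell enters mitosis when cyclin A and cyclin B switch on the kinase CDK1, which WEE1 holds back and the CDC25 phosphatases release. Many of the genes needed at this stage are transcribed together late in the cycle by the MuvB complex with B-MYB (the product of Mybl2) and FOXM1, and the same promoters are silenced in resting or p53-arrested cells by the related DREAM complex. Doxorubicin intercalates into DNA and traps topoisomerase II, and the p53 and G2 checkpoint pathways respond to the breaks that follow.

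Signals were given as RMA values in log2 units, in which 1 unit stands for a 2-fold change, and the 12 arrays had medians between 7.11 and 7.23. In these bulk tumours, fewer dividing cells and less RNA of these genes per cell cannot be told apart. The array of CP-Dox replicate 2 correlated with the rest of its group at 0.948 on average, against 0.971 to 0.990 for the other 11 arrays. Of 11 colon epithelium markers, 1 rose in CP-Dox against PBS, Cdh1, and Cdh1 and Epcam had their highest signals, 7.88 and 7.87, in CP-Dox replicate 3. Krt8, Krt18 and Krt20 had theirs in CP-Dox replicate 2, and Krt18 was at 6.88, 10.33, 6.07 and 5.74 in CP-Dox replicates 1 to 4, at 6.61 to 9.25 in Dox tumours and at 7.32 to 8.75 in PBS tumours. Thus 3 CP-Dox tumours were below every PBS tumour for Krt18 and replicate 2 above them, while Cdx1, Cdx2, Vil1, Lgals4 and Cdh17 were between 4.01 and 5.48 in every tumour. The mean of 13 keratinocyte markers was 2.94 and 4.41 above the PBS mean in CP-Dox replicates 1 and 3 and within -0.17 to 0.09 of it in the other 10 tumours. The mean of 16 skeletal muscle markers was between -0.43 and 1.77 in the CP-Dox tumours, at 1.502 in Dox replicate 2, between -2.37 and -2.33 in the other Dox tumours, at 3.24 and 1.54 in PBS replicates 3 and 4, and at -2.33 and -2.46 in PBS replicates 1 and 2. For 14 markers of T cells and natural killer cells the mean was -1.51 in CP-Dox replicate 2 and 0.80 to 1.35 in the other CP-Dox tumours. Of 10 mast cell markers 9 rose in CP-Dox against PBS, and their mean was 1.13 to 1.71 in CP-Dox, -0.31 to 1.07 in Dox and -0.43 to 0.28 in PBS tumours. Of 12 endothelial markers 3 rose, with means of 0.48 to 0.61 in CP-Dox, 0.0012 to 0.35 in Dox and -0.21 to 0.18 in PBS tumours. Of 8 neutrophil markers 2 rose, with means of 0.31 to 1.38 in CP-Dox, -0.05 to 1.097 in Dox and -0.14 to 0.12 in PBS tumours. The mast cell, endothelial and neutrophil means of all CP-Dox tumours were above those of all PBS tumours. So were the fibroblast means (0.20 to 0.68 against -0.18 to 0.12) and the adipocyte means (0.33 to 0.97 against -0.21 to 0.32). The erythroid means of all CP-Dox tumours were below those of all PBS tumours (-0.64 to -0.31 against -0.12 to 0.23). Of single markers, 2 of 10 fibroblast and 1 of 6 adipocyte markers rose, and 1 of 4 erythroid markers fell. Of the keratinocyte, muscle, T and natural killer cell, B cell and macrophage markers, 0 passed by limma. Over all genes, 2.35% rose and 3.23% fell in this comparison, and the lists are short. The part of these cells in the results below was not tested.

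Of the 51 mitosis and G2/M genes, 7 fell in CP-Dox against PBS tumours and 44 did not pass the threshold, and 1 CP-Dox tumour stood far below all others. The mean of the 51 genes, expressed relative to the PBS mean of each gene, was -0.23, -1.54, -0.34 and -0.22 in CP-Dox replicates 1 to 4, -0.17, -0.47, -0.15 and -0.22 in Dox replicates 1 to 4, and 0.03, 0.09, 0.04 and -0.16 in PBS replicates 1 to 4. CP-Dox replicate 2 had the lowest signal of the 12 tumours for 51 of the 51 genes, where 13.8% of all genes were lowest in that tumour. There, 44 of the 51 genes were at least 2-fold below their PBS mean, against 3.42% of all genes. In CP-Dox replicates 1, 3 and 4 that number was 1, 1 and 0 of the 51, against 1.04%, 1.31% and 0.75% of all genes. The other CP-Dox tumours lay among the Dox tumours in this mean, and PBS replicate 4 was the PBS tumour nearest to them.

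**Figure D1:**
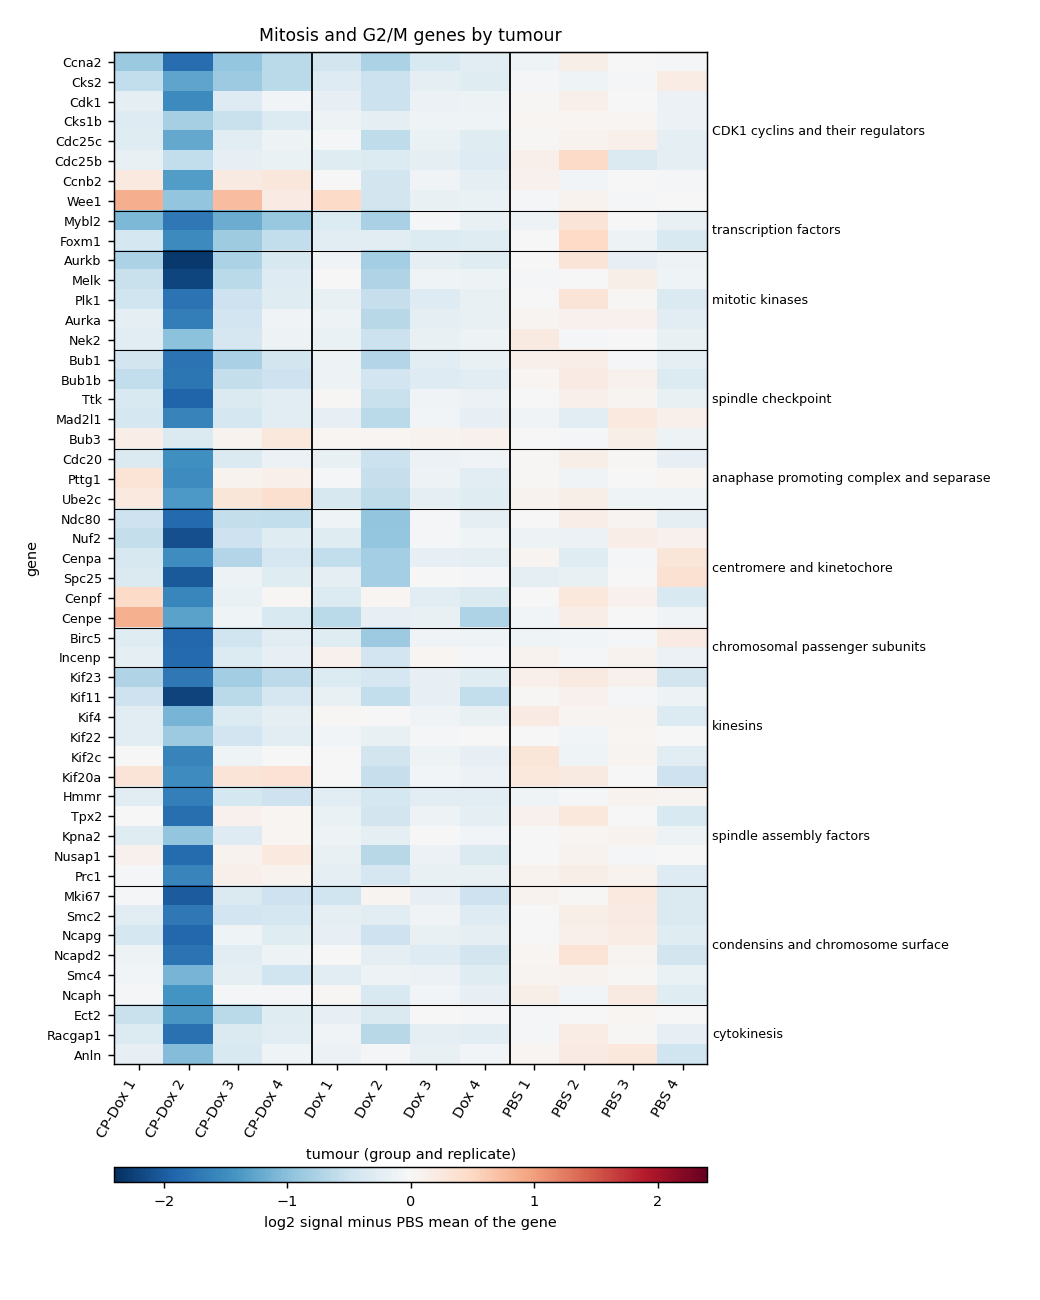
Heat map of the 51 genes (rows, in 11 groups by role) in the 12 tumours (columns, CP-Dox, Dox and PBS with their replicate numbers). Colour gives the log2 signal minus the PBS mean of that gene, blue below and red above. The column of CP-Dox replicate 2 is blue throughout, and in the other 3 CP-Dox tumours Mybl2, Foxm1, Ccna2, Cks2 and Kif23 are blue while Wee1, Ccnb2, Ube2c and Kif20a are red.

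Promoters were searched for elements known from late cell cycle genes: the homology region, through which the DREAM and MuvB complexes act, the box bound by NF-Y, and letters of E2F sites. Of the 52 listed genes, 43 had a promoter in the RefSeq table for mouse (build GRCm38.p6), a window of 300 bases with 250 before and 50 after the gene start. The cell cycle genes homology region, searched as TTTGAA or TTTAAA on both strands, was present in 32 of the 43 (74.4%) against 27.8% of 27025 promoters of the same length. The NF-Y box, CCAAT on both strands, was present in 32 of the 43 (74.4%) against 37.9% of all promoters. Both occurred together in 28 of the 43 (65.1%) against 10.9% of all promoters. E2F letters (TTCCCGC, and likewise TTGGCGC and also the word TTCGCGC, on both strands) were found in 7 of the 43 (16.3%) against 8.21%. Words of one motif can overlap with those of another, and a match is a description of letters only. The promoters of the cyclin B2 gene Ccnb2 (chr9:70421505-70421804, minus strand), the CDK1 gene Cdk1 (chr10:69352863-69353162, minus strand) and the Polo-like kinase gene Plk1 (chr7:122159185-122159484, plus strand) follow, with homology regions and NF-Y boxes in capitals.
Ccnb2: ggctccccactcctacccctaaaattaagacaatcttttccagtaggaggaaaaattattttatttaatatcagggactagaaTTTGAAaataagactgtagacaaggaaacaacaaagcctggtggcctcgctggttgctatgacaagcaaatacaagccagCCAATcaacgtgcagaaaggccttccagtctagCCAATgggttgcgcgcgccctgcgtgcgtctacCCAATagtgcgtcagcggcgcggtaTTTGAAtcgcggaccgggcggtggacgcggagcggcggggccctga
Cdk1: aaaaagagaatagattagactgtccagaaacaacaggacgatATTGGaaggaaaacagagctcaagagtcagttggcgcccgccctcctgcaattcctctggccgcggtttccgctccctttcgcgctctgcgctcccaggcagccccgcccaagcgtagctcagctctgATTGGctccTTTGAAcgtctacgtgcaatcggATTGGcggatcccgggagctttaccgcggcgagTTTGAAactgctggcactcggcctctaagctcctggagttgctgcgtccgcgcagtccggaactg
Plk1: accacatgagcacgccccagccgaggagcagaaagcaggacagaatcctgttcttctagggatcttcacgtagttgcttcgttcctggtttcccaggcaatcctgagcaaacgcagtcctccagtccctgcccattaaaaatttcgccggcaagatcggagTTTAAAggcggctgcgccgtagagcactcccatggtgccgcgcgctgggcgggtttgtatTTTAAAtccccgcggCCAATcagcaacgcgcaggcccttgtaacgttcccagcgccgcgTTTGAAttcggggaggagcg
The Ccnb2 window held 2 homology regions and 3 NF-Y boxes, the Cdk1 window 2 and 3, and the Plk1 window 3 and 1. The windows of Nuf2, Nusap1, Mybl2, Melk, Mad2l1 and Pttg1 held none of the 3 motifs, and that of Cks2 held 4 NF-Y boxes and no homology region.

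**Figure D2:**
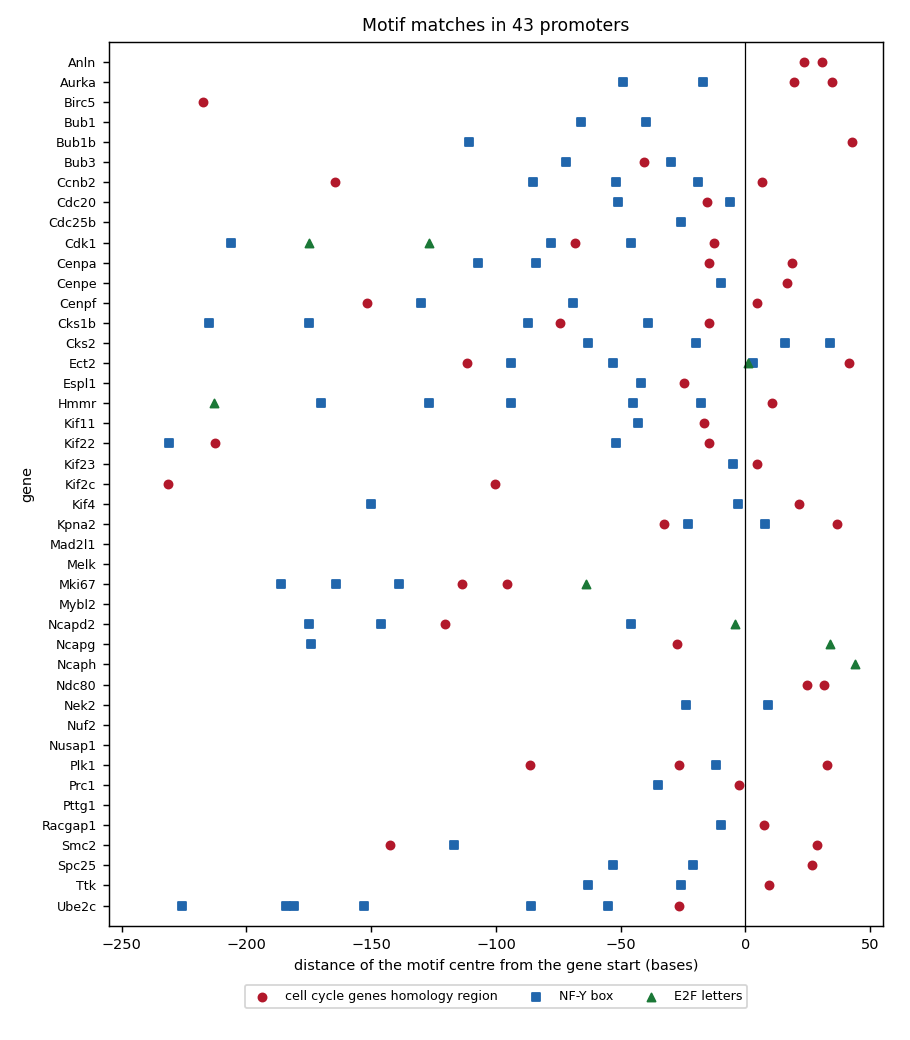
Positions of the motif matches in the promoters of 43 mitosis and G2/M genes, as the distance of the motif centre from the gene start in bases (x axis, 0 at the start). Red circles are homology regions, blue squares NF-Y boxes and green triangles E2F letters, and 32, 32 and 7 of the 43 promoters have at least 1 of each.

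Tumours given CP-Dox were compared with tumours given PBS to ask how the carrier-bound drug changed this programme. Cyclin A2, both CDK1-binding CKS proteins, both transcription factors and a pair of kinesins had lower transcripts in CP-Dox tumours. Of the 51 genes, 7 fell (13.7%) and 0 rose by limma at an adjusted p under 0.05, while 3.23% of all genes fell and 2.35% rose. The other 44 genes did not pass the threshold. At an unadjusted p under 0.05, 28 genes were lower and 0 higher, where 13.3% of all genes were lower and 10.2% higher. For 22 genes every CP-Dox tumour was below every PBS tumour, against 7.75% of all genes, and for 0 genes every CP-Dox tumour was above, against 4.31%. The median log2 difference of the 51 genes was -0.60, that of all genes was -0.04, and 49 of the 51 had a lower mean. Without CP-Dox replicate 2, 13 genes fell and 0 rose, where 9.17% of all genes fell and 9.9% rose, and the median difference of the 51 genes was -0.27. The number that fell was 4 without CP-Dox replicate 1, 3 without CP-Dox replicate 3, and 3 without PBS replicate 1, 2 or 3, and Mybl2, Cks2 and Ccna2 fell without any single array of the compared groups. With array weights 15 fell and 0 rose, where 11% of all genes fell and 10.5% rose.

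**Figure D3:**
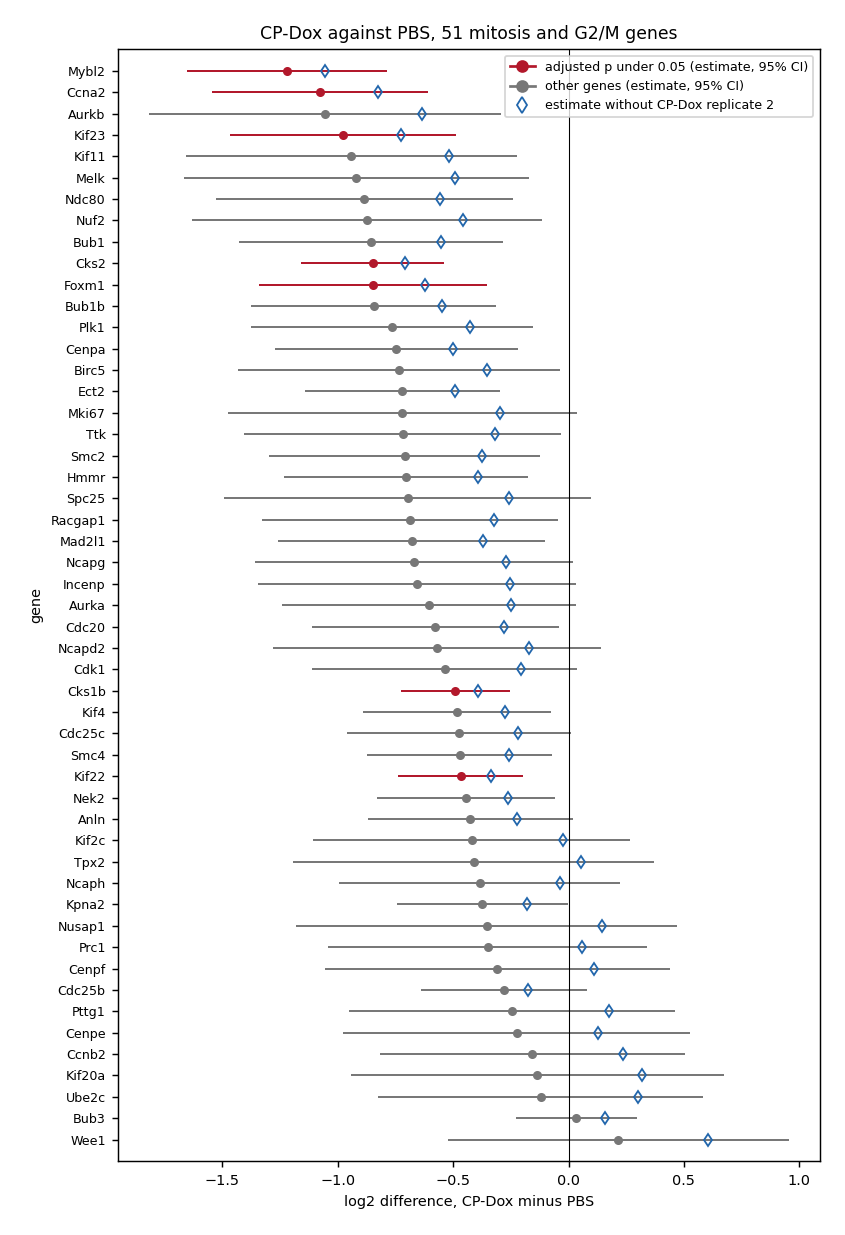
Log2 difference between CP-Dox and PBS tumours for the 51 genes (x axis), with 95% confidence intervals from limma and 4 tumours in each group. Red points are the 7 genes with an adjusted p under 0.05, grey points the other 44, and open blue diamonds the estimate without CP-Dox replicate 2, which lies to the right of the full estimate for every gene.

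Both transcription factors of the programme fell. Mybl2, which encodes B-MYB, the activator that joins the MuvB complex before mitosis, was at 6.16, 5.52, 6.05 and 6.32 in CP-Dox replicates 1 to 4, at 6.89, 6.45, 7.21 and 7.05 in Dox replicates 1 to 4, and at 7.11, 7.53, 7.23 and 7.05 in PBS replicates 1 to 4, and all values below are in this order of replicates. Every CP-Dox tumour lay below every Dox and PBS tumour, and the Dox and PBS tumours overlapped. Mybl2 fell by 1.22 ± 0.20 on the log2 scale in CP-Dox against PBS tumours (2.33-fold lower, limma adjusted p = 0.00702), the largest difference of the 51 genes, and by 1.06 without CP-Dox replicate 2 (adjusted p = 0.00334, and 0.00181 to 0.0935 over 17 alternative settings). Here and below, ± gives the standard error from limma, with 4 tumours in each group and a spread shared by all 3 groups. Foxm1, which encodes the forkhead activator of late cell cycle genes, was at 8.33, 7.24, 7.91 and 8.16 in CP-Dox, at 8.48, 8.51, 8.42 and 8.47 in Dox and at 8.77, 9.23, 8.63 and 8.39 in PBS tumours. The CP-Dox values lay below all others, though CP-Dox replicate 1 and PBS replicate 4 differed by little. Foxm1 fell by 0.85 ± 0.22 (limma adjusted p = 0.0488), close to the threshold, and 10 of 18 alternative settings did not call it.

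Of 8 CDK1 cyclins and regulators, 3 fell, 0 rose and 5 did not pass. Ccna2, which encodes cyclin A2, the partner of CDK2 in S phase and of CDK1 in G2, was at 10.80, 9.87, 10.77 and 11.04 in CP-Dox, at 11.26, 10.94, 11.33 and 11.42 in Dox and at 11.60, 11.83, 11.70 and 11.65 in PBS tumours. All PBS tumours were above all others, and of the CP-Dox tumours only replicate 4 was above a Dox tumour. Ccna2 fell by 1.08 ± 0.21 (2.11-fold lower, limma adjusted p = 0.0173). Cks2, a small CDK-binding subunit gene, was at 10.95, 10.27, 10.66 and 10.88 in CP-Dox, at 11.22, 11.03, 11.33 and 11.25 in Dox and at 11.48, 11.43, 11.51 and 11.72 in PBS tumours. The 3 groups did not overlap at all, with Dox between CP-Dox and PBS. Cks2 fell by 0.85 ± 0.14 in CP-Dox against PBS (limma adjusted p = 0.00764). Its relative Cks1b, which also serves the ubiquitin ligase that degrades p27, was at 12.69, 12.22, 12.47 and 12.68 in CP-Dox, at 12.87, 12.79, 12.90 and 12.91 in Dox and at 13.04, 13.06, 13.04 and 12.87 in PBS tumours. It fell by 0.49 ± 0.11 (limma adjusted p = 0.0242), with no CP-Dox value inside the range of the other groups.

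The kinase gene itself and the genes that set its activity did not pass. Cdk1, whose promoter is shown above, was at 11.19, 9.90, 11.12 and 11.36 in CP-Dox, at 11.24, 10.91, 11.29 and 11.31 in Dox and at 11.46, 11.55, 11.42 and 11.28 in PBS tumours. CP-Dox replicate 2 stood alone, and the other CP-Dox tumours overlapped both other groups. The difference from PBS was -0.54 ± 0.26 (limma adjusted p = 0.235) and -0.21 without that tumour. Cdc25b, a phosphatase gene that helps to activate CDK1 before mitosis, was at 9.22, 8.81, 9.21 and 9.25 in CP-Dox, at 9.12, 9.08, 9.16 and 9.10 in Dox and at 9.53, 9.86, 9.05 and 9.18 in PBS tumours. The PBS tumours spread over both treated groups, and the difference was -0.28 ± 0.16 (limma adjusted p = 0.313). Wee1, the kinase gene that keeps CDK1 inactive, was at 9.63, 7.80, 9.48 and 8.95 in CP-Dox, at 9.22, 8.31, 8.57 and 8.59 in Dox and at 8.71, 8.84, 8.71 and 8.75 in PBS tumours. CP-Dox replicates 1, 3 and 4 were above every PBS tumour and replicate 2 was below every PBS tumour, so that the difference was 0.22 ± 0.34 (limma adjusted p = 0.722), and 0.61 without replicate 2 (adjusted p = 0.0601, and 0.0601 to 0.993 over 18 settings). Keratinocyte markers were high in CP-Dox replicates 1 and 3, the tumours with the highest Wee1 signals, and their part was not tested. Cdc25c differed by -0.47 and Ccnb2 by -0.16.

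Of 6 kinesins, 2 fell and 4 did not pass. Kif23, a motor of the central spindle needed for cytokinesis, was at 8.85, 7.84, 8.73 and 8.94 in CP-Dox, at 9.24, 9.16, 9.37 and 9.27 in Dox and at 9.69, 9.78, 9.67 and 9.12 in PBS tumours. The CP-Dox tumours were below all others, and PBS replicate 4 was below the Dox tumours. Kif23 fell by 0.98 ± 0.22 (1.97-fold lower, limma adjusted p = 0.029). Kif22, a motor that pushes chromosome arms towards the spindle equator, was at 10.60, 10.01, 10.41 and 10.62 in CP-Dox, at 10.80, 10.70, 10.84 and 10.88 in Dox and at 10.88, 10.81, 10.93 and 10.88 in PBS tumours. It fell by 0.47 ± 0.12 (limma adjusted p = 0.0476), and 10 of 18 alternative settings did not call it. Dox and PBS tumours overlapped for both genes. Kif11, the motor that separates spindle poles, differed by -0.94 ± 0.33 with no overlap between CP-Dox and PBS tumours (limma adjusted p = 0.116), and it fell by 0.52 without CP-Dox replicate 2. Kif4, Kif2c and Kif20a differed by -0.48, -0.42 and -0.14.

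None of the 5 mitotic kinases passed, although all had lower means (-1.06 to -0.44). Aurkb, the catalytic subunit of the chromosomal passenger complex, was at 8.71, 7.16, 8.73 and 9.10 in CP-Dox, at 9.39, 8.66, 9.25 and 9.19 in Dox and at 9.49, 9.79, 9.29 and 9.36 in PBS tumours. Every CP-Dox tumour was below every PBS tumour, CP-Dox replicate 4 and PBS replicate 3 lying nearest to each other. The difference was -1.06 ± 0.35 (limma adjusted p = 0.0991), and Aurkb fell by 0.63 without CP-Dox replicate 2. Plk1, which drives centrosome maturation and mitotic exit and whose promoter is shown above, was at 9.34, 8.05, 9.32 and 9.52 in CP-Dox, at 9.64, 9.27, 9.52 and 9.64 in Dox and at 9.83, 10.13, 9.85 and 9.47 in PBS tumours. CP-Dox replicate 4 was above PBS replicate 4, and the difference was -0.76 ± 0.28 (limma adjusted p = 0.13). Melk, a kinase gene whose transcript follows proliferation, was at 8.21, 6.55, 8.10 and 8.44 in CP-Dox, at 8.75, 8.01, 8.64 and 8.62 in Dox and at 8.70, 8.74, 8.89 and 8.64 in PBS tumours. The CP-Dox tumours were below the PBS tumours, Dox replicate 2 lay among them, and the difference was -0.92 ± 0.34 (limma adjusted p = 0.136). Aurka, the spindle pole kinase gene, and Nek2, a centrosome kinase gene, differed by -0.60 and -0.44.

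**Figure D4:**
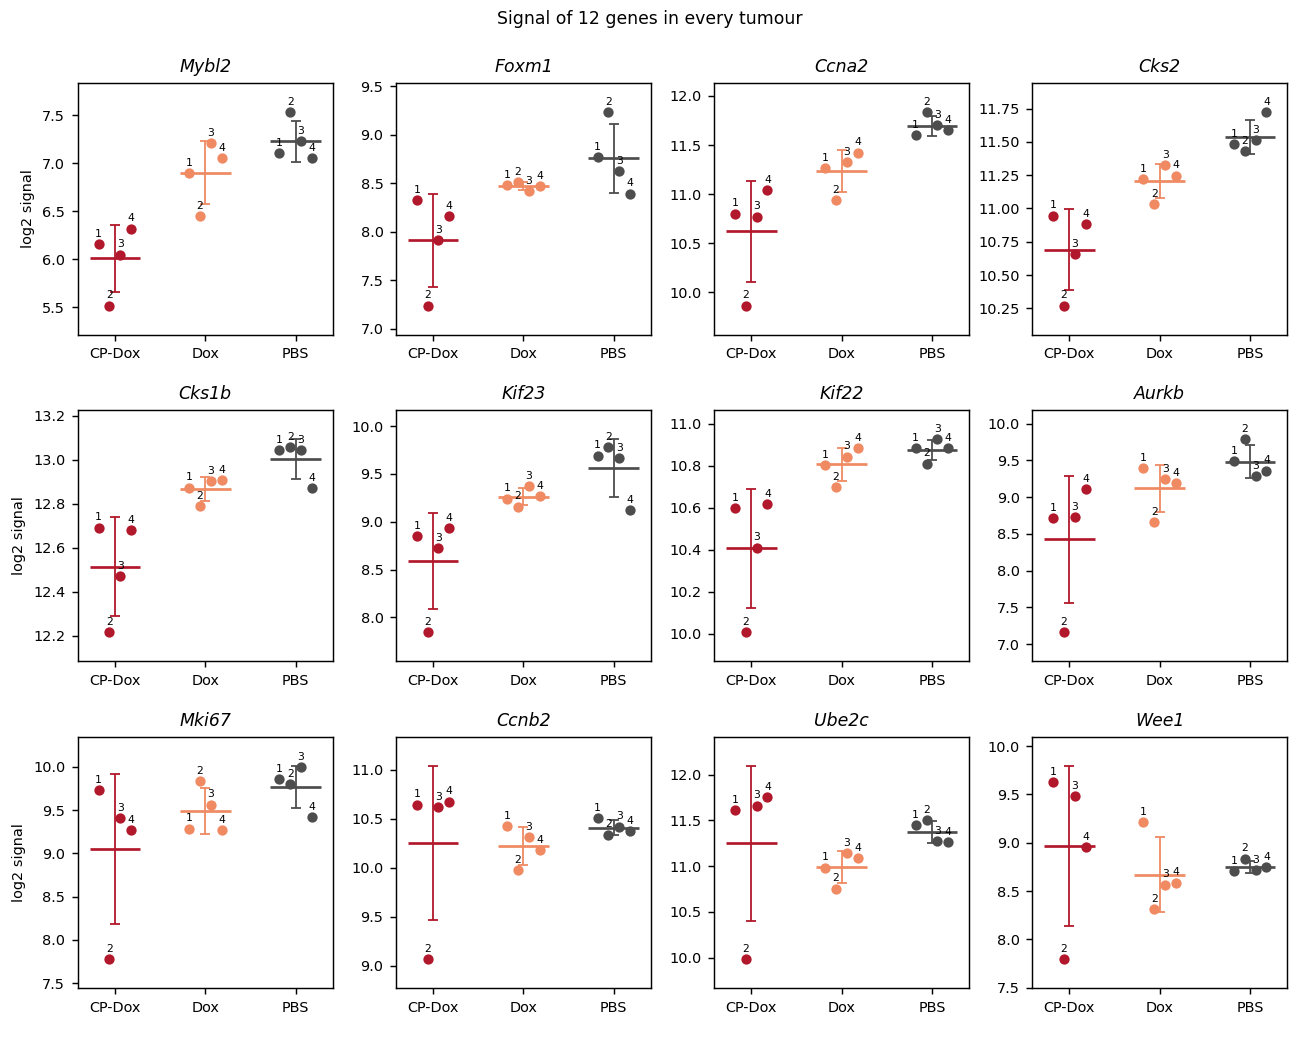
Log2 signal of 12 genes in each tumour (points with replicate numbers), with the mean (line) and SD (bars) of 4 tumours per group, CP-Dox left, Dox in the middle and PBS right. Each panel has its own y axis, which does not start at 0. In the panels of Mybl2, Cks2, Cks1b, Kif23 and Kif22 the CP-Dox points lie below all others, and in those of Ccnb2 and Ube2c 3 of the 4 CP-Dox points lie above every PBS point.

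Spindle checkpoint genes gave 0 calls of 5, with Bub1b closest to the threshold. Bub1b, which encodes the checkpoint protein BUBR1, differed by -0.84 ± 0.24 (limma adjusted p = 0.0653) and the checkpoint kinase gene Bub1 by -0.86 ± 0.26 (limma adjusted p = 0.0799). For both genes all CP-Dox tumours were below all PBS tumours, and both fell without CP-Dox replicate 2, by 0.55 each. Ttk, a kinetochore kinase gene, and Mad2l1, which encodes the inhibitor MAD2, differed by -0.72 and -0.68. Bub3, a partner of BUB1 and BUBR1 with roles outside mitosis, was at 11.47, 10.98, 11.41 and 11.57 in CP-Dox, at 11.37, 11.36, 11.41 and 11.43 in Dox and at 11.33, 11.29, 11.46 and 11.20 in PBS tumours. In the probe set used, its values spanned only 0.59 over the 12 tumours, the narrowest range of the 51 genes. The difference was 0.03 ± 0.12 (limma adjusted p = 0.877), and the other probe sets of Bub3, given below, differed in sign.

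Centromere and kinetochore genes gave 0 calls of 6. Cenpa, the centromeric histone H3 variant, was at 10.42, 9.32, 10.10 and 10.41 in CP-Dox, at 10.22, 10.001, 10.61 and 10.57 in Dox and at 10.88, 10.51, 10.75 and 11.09 in PBS tumours. The CP-Dox tumours were below the PBS tumours and overlapped the Dox tumours, and the difference from PBS was -0.75 ± 0.24 (limma adjusted p = 0.0928). Spc25, a subunit of the NDC80 complex that binds microtubules, was at 9.15, 7.49, 9.38 and 9.20 in CP-Dox, at 9.26, 8.69, 9.49 and 9.45 in Dox and at 9.29, 9.33, 9.52 and 9.86 in PBS tumours. Apart from replicate 2, the CP-Dox tumours lay within or just below the PBS range, and the difference was -0.70 ± 0.36 (limma adjusted p = 0.264). Ndc80 and Nuf2, subunits of the same complex, differed by -0.88 and -0.87 with no overlap between CP-Dox and PBS tumours. Cenpf and Cenpe, kinetochore proteins that appear late in the cycle, differed by -0.31 and -0.23.

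Cytokinesis genes and chromosomal passenger subunits gave 0 calls of 3 and of 2. Ect2, the exchange factor that activates RhoA at the cleavage site, missed the threshold by the least of the 51 genes. It was at 10.31, 9.45, 10.20 and 10.56 in CP-Dox, at 10.65, 10.49, 10.86 and 10.81 in Dox and at 10.81, 10.84, 10.90 and 10.85 in PBS tumours. All CP-Dox tumours were below all PBS tumours, the difference was -0.72 ± 0.19 (limma adjusted p = 0.051), and Ect2 fell by 0.49 without CP-Dox replicate 2. Racgap1, its partner at the central spindle, and the contractile ring gene Anln differed by -0.69 and -0.43. Birc5, which encodes survivin, and Incenp, the scaffold of the passenger complex, differed by -0.74 and -0.66.

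Condensins, chromosome surface genes and spindle assembly factors gave 0 calls of 6 and of 5. Mki67, which encodes the proliferation antigen Ki-67 that coats mitotic chromosomes, was at 9.73, 7.78, 9.41 and 9.27 in CP-Dox, at 9.29, 9.83, 9.56 and 9.27 in Dox and at 9.85, 9.80, 9.99 and 9.42 in PBS tumours. The groups overlapped apart from CP-Dox replicate 2, and the difference from PBS was -0.72 ± 0.34 (limma adjusted p = 0.231) and -0.30 without that tumour. The condensin genes Smc2, Ncapg, Ncapd2, Smc4 and Ncaph differed by -0.71, -0.67, -0.57, -0.47 and -0.38. Among the spindle assembly factors, Hmmr, which encodes a microtubule-associated hyaluronan receptor, differed by -0.70 ± 0.24 (limma adjusted p = 0.109) and fell by 0.39 without CP-Dox replicate 2. Tpx2, the activator of Aurora A, the importin gene Kpna2, and the microtubule bundling genes Nusap1 and Prc1 differed by -0.41, -0.37, -0.36 and -0.35.

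Genes of the anaphase promoting complex pathway gave 0 calls of 3, and their median difference from PBS was -0.25, and 0.17 without CP-Dox replicate 2. Without that tumour the genes differed in direction, with Cdc20 at -0.28, Pttg1 at 0.17 and Ube2c at 0.30. Their mean relative to PBS was 0.07, -1.46, 0.01 and 0.12 in CP-Dox replicates 1 to 4, -0.21, -0.56, -0.16 and -0.21 in the Dox tumours and 0.04, 0.06, -0.02 and -0.08 in the PBS tumours. The mean of the pair of transcription factors was -0.75, -1.62, -1.01 and -0.75 in CP-Dox, -0.31, -0.51, -0.18 and -0.23 in Dox and -0.05, 0.39, -0.06 and -0.27 in PBS tumours. Without CP-Dox replicate 2 these 2 groups of genes had the highest and the lowest median (0.17 and -0.84) of the 11 groups by role. The difference between them was not tested. Cdc20, the activator of the complex at anaphase, Pttg1, the securin gene, and Ube2c, its ubiquitin-conjugating enzyme, differed by -0.58, -0.25 and -0.12.

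For 6 genes, CP-Dox replicates 1, 3 and 4 were all above every PBS tumour while replicate 2 was below all of them: Nusap1, Pttg1, Wee1, Ccnb2, Ube2c and Kif20a. Over all genes, those 3 tumours were above every PBS tumour for 12.6%, whatever replicate 2 did, so that 6 of 51 is near the background. For 22 genes those 3 tumours were all below every PBS tumour, against 16.2% of all genes. Both groups of genes were picked out after their values were seen. Ube2c was at 11.61, 9.98, 11.66 and 11.75 in CP-Dox, at 10.98, 10.75, 11.14 and 11.09 in Dox and at 11.45, 11.50, 11.27 and 11.27 in PBS tumours. Ccnb2, whose promoter is shown above, was at 10.64, 9.07, 10.62 and 10.67 in CP-Dox, at 10.42, 9.97, 10.32 and 10.18 in Dox and at 10.51, 10.34, 10.42 and 10.37 in PBS tumours. The CP-Dox mean of both genes lay between replicate 2 and the other 3 tumours. Without CP-Dox replicate 2 the differences from PBS were 0.30 for Ube2c, 0.24 for Ccnb2, 0.32 for Kif20a, 0.17 for Pttg1 and 0.14 for Nusap1, and none of the 6, Wee1 included, passed the threshold. In CP-Dox replicates 1, 3 and 4, Ccna2 was at -0.90, -0.93 and -0.65 relative to PBS and Ccnb2 at 0.23, 0.21 and 0.27. Over all 4 CP-Dox tumours both means were lower than in PBS, and Ccnb2, at -0.16, did not pass the threshold. Ccnb2 is 1 of the 6 genes picked out after their values were seen.

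Dox tumours were compared with the same PBS tumours to ask what the free drug changed. None of the 51 genes passed by limma (adjusted p = 0.995 for each), and neither did any of the 12393 genes (0% lower, 0% higher). At an unadjusted p under 0.05, 1 member was lower, Cks2, and 0 were higher, where 2.54% of all genes were lower and 1.96% higher. The mean was lower in Dox for 50 of the 51 genes, Bub3 being the exception, and the median difference was -0.27, against 0.0046 for all genes. For 7 genes every Dox tumour was below every PBS tumour (Ccna2, Cks2, Hmmr, Kif11, Nusap1, Cenpe and Ube2c), where this held for 2.13% of all genes, and 0 of the 51 were above throughout (1.71% of all genes). The 2 comparisons with PBS share the PBS tumours, so that a PBS tumour that lies high moves both.

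The sizes of the Dox differences were -0.46 ± 0.21 for Ccna2 (95% interval -0.93 to 0.00), -0.33 ± 0.14 for Cks2 (-0.64 to -0.03), -0.33 ± 0.20 for Mybl2 (-0.76 to 0.10), -0.46 ± 0.24 for Cenpa (-0.98 to 0.06) and -0.29 ± 0.16 for Cdc25b (-0.64 to 0.07), the genes with the lowest p. For Foxm1 the difference was -0.29, for Plk1 -0.31, for Aurkb -0.36, for Mki67 -0.28 and for Cdk1 -0.24. In this fit the intervals of the 51 genes reached down to -1.18 (Cenpe), so that it did not exclude 2-fold lower levels for some of them. The spread of each gene was shared by all 3 groups, CP-Dox included. The mean of the 51 genes had an SD of 0.64 in CP-Dox, 0.15 in Dox and 0.11 in PBS tumours. These intervals are thus not the spread of Dox and PBS tumours alone. Dox replicate 2 was the lowest of the Dox tumours in the mean of the 51 genes.

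**Figure D5:**
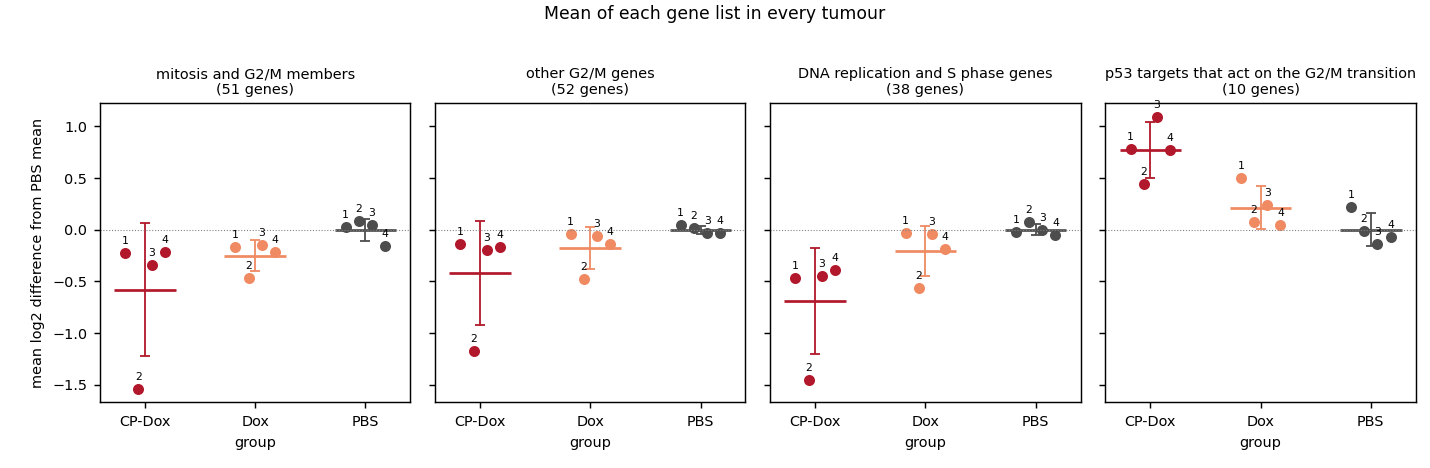
Mean of 4 gene lists in each tumour (points with replicate numbers) as the log2 difference from the PBS mean, with group mean (line) and SD (bars, 4 tumours), CP-Dox left, Dox in the middle and PBS right. CP-Dox replicate 2 lies at -1.54, -1.18 and -1.46 for the mitosis, other G2/M and S phase genes, whereas for the p53 targets all 4 CP-Dox tumours lie between 0.44 and 1.09.

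CP-Dox and Dox tumours were compared directly. By limma, 0 of the 51 genes passed, and of all genes 0.169% were lower and 0.0565% higher. At an unadjusted p under 0.05, 10 of the 51 were lower and 0 higher, where 9.39% of all genes were lower and 6.67% higher. The median difference was -0.38, against -0.03 for all genes, and 45 of the 51 means were lower. The lowest p were those of Mybl2 (-0.89 ± 0.20, limma adjusted p = 0.087), Cks2 (-0.52 ± 0.14, limma adjusted p = 0.136), Cks1b (-0.35 ± 0.11, limma adjusted p = 0.17), Kif22 (-0.40 ± 0.12, limma adjusted p = 0.176) and Kif23 (-0.67 ± 0.22, limma adjusted p = 0.2). For 8 genes every CP-Dox tumour was below every Dox tumour, namely these 5 with Foxm1, Bub1b and Kif4, where this held for 6.34% of all genes, and 0 were above throughout (3.29% of all genes). The intervals of the 51 differences lay between -1.45 (Aurkb) and 1.03 (Wee1).

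The direct comparison also rested on CP-Dox replicate 2. Without it, Mybl2 fell by 0.73 (limma adjusted p = 0.0308), while Ube2c (0.68, limma adjusted p = 0.00854), Nusap1 (0.47, limma adjusted p = 0.0373) and Ccnb2 (0.42, limma adjusted p = 0.0347) rose, and of all genes 4.51% fell and 4.77% rose. Over all alternative settings the adjusted p of this comparison ranged between 0.00649 and 0.683 for Mybl2, 0.00854 and 0.999 for Ube2c, 0.0373 and 0.985 for Nusap1, and 0.0347 and 0.99 for Ccnb2. The median of the 51 genes was then -0.05, with 31 means lower and 20 higher. For 8 genes CP-Dox replicates 1, 3 and 4 were all above every Dox tumour, namely Cdc25b, Tpx2, Prc1, Nusap1, Pttg1, Ccnb2, Ube2c and Kif20a, where this held for 11.5% of all genes. These 8 were picked out after their values were seen. With array weights, which give CP-Dox replicate 2 the lowest weight, 7 of the 51 genes fell and Ube2c rose, where 8.84% of all genes fell and 6.97% rose.

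For 26 of the 51 genes, 41 other probe sets could be compared with the one used. In CP-Dox against PBS, 39 of the 41 had the same sign, and the 2 opposite ones belonged to Bub3. The other probe sets of Bub3 were at -0.32, 0.23 and -0.07 there, and at -0.06, 0.08 and -0.13 in Dox against PBS. A second probe set also fell for Mybl2 (by 0.95, limma adjusted p = 0.0036), Cks2 (by 0.85, adjusted p = 0.0106) and Cks1b (by 0.68, adjusted p = 0.0272). The other probe set of Ccna2 was at -0.75 (limma adjusted p = 0.134) and those of Kif22 at -0.89 and -1.03 (limma adjusted p = 0.0699 and 0.0653). For Foxm1, 2 of 3 further probe sets fell, and for Kif23 another fell by 1.28 and the last was at -0.10 (limma adjusted p = 0.63). In Dox against PBS and in CP-Dox against Dox, 37 of the 41 had the same sign in each comparison.

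Other cell cycle genes were set beside these members. Over all genes, 3.23% fell and 2.35% rose in CP-Dox against PBS. Of 52 measured G2/M genes outside the list, 3 fell (5.77%) and 0 rose, with a median of -0.39. They were the lamin B1 gene Lmnb1 (fell by 0.67), Depdc1a (fell by 0.89) and Zw10, a kinetochore gene (fell by 0.35; limma adjusted p = 0.0198, 0.0465 and 0.0488). Without CP-Dox replicate 2, 13 of the 52 fell (25%) and 3 rose (5.77%), where 9.17% of all genes fell and 9.9% rose. Among 38 genes of DNA replication and S phase, 10 fell (26.3%) and 0 rose, with a median of -0.67, and 14 fell (36.8%) without that tumour. Among them were Pold2, a DNA polymerase delta subunit gene (fell by 0.86), Orc6 of the origin recognition complex (fell by 0.78), Ccne1, the cyclin E1 gene (fell by 0.78), and E2f1 (fell by 0.65), with limma adjusted p of 0.00338, 0.00725, 0.0104 and 0.0202. The S phase mean was -0.47, -1.46, -0.45 and -0.39 in CP-Dox replicates 1 to 4. It was -0.04, -0.56, -0.04 and -0.18 in Dox replicates 1 to 4 and -0.06 to 0.07 in the PBS tumours. The mean of the 51 mitosis genes was -0.23, -1.54, -0.34 and -0.22 in CP-Dox replicates 1 to 4 and -0.16 to 0.09 in the PBS tumours. For both lists every CP-Dox mean was below every PBS mean. The closest for the mitosis genes were CP-Dox replicate 4 (-0.22) and PBS replicate 4 (-0.16). In Dox against PBS, 0 genes of either list passed by limma. At an unadjusted p under 0.05, 1 of the 52 other G2/M genes was lower (Anapc5) and 1 higher (Cdc16). Of the 38 S phase genes 3 were lower and 0 higher, where 2.54% of all genes were lower and 1.96% higher.

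Regulators of the G2/M programme moved in both directions. Of 10 listed p53 targets, not all of which act on the transition directly, 3 rose (30%) and 0 fell in CP-Dox against PBS. Over all genes, 2.35% rose. The 3 were the cyclin G1 gene Ccng1 (1.72 ± 0.21), the p21 gene Cdkn1a (1.50 ± 0.27) and Mdm2 (1.35 ± 0.26), with limma adjusted p of 0.00295, 0.0109 and 0.0157. The other 7 did not pass, among them Rprm and Sfn (limma adjusted p = 0.0543 and 0.174). The mean of all 10 targets was 0.78, 0.44, 1.09 and 0.77 above PBS in CP-Dox replicates 1 to 4. That list holds Sfn, which is also a keratinocyte marker, and Gtse1, which is also among the other G2/M genes. The mean of the other 8 targets was 0.72, 0.63, 0.96 and 0.89 in CP-Dox, 0.59, 0.12, 0.28 and -0.0045 in Dox and 0.25, -0.06, -0.15 and -0.04 in PBS tumours. Of 10 measured genes of DREAM and MuvB, 3 fell (30%) and 1 rose (10%), against 3.23% and 2.35% of all genes. The list counts Mybl2 and Foxm1, activators that join MuvB and are not subunits of its core. Beside that pair, the E2F partner gene Tfdp1 fell by 0.58 ± 0.09 (limma adjusted p = 0.00523), and Rbl2, which encodes the pocket protein p130 of the repressive complex, rose by 0.50 ± 0.12 (limma adjusted p = 0.0306). In Dox against PBS, 0 genes of either list passed by limma. At an unadjusted p under 0.05, 2 were higher and 1 lower, where 1.96% of all genes were higher and 2.54% lower. Ccng1 was at 0.94 ± 0.21 there, with every Dox tumour above every PBS tumour, and Cdkn1a at 0.75 ± 0.27, with overlap. Cdkn1a was at 10.78, 10.64, 10.37 and 10.19 in Dox and at 10.18, 10.32, 9.28 and 9.19 in PBS tumours. PBS replicates 3 and 4, lowest for Cdkn1a, have muscle markers, and their part was not tested.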

How the data were processed

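RNA of 12 tumours was measured on 1 Affymetrix array each. Per the labels' protocols, tumour RNA came from spin columns and was labelled as biotinylated cRNA. The authors deposited log2 signals, and the submitters' processing notes name RMA and Partek, with versions and order of steps not given in the sources used here. They were used without further normalization.

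Of 22690 probe sets, 64 controls, 691 with several symbols and 1555 with none were left out, which left 20380 for 12393 genes. Of these, 20351 were found in the RefSeq gene table and 0 symbols changed. Titles of the samples gave the groups, and each replicate number in them is a mouse of its own. One linear model with a mean per group was fitted over all genes and arrays with limma 3.58.1 in R 4.3.3 (lmFit, eBayes). P-values are two-sided, with Benjamini-Hochberg adjustment across all 12393 genes in each of 3 comparisons. Other probe sets were fitted over all 20380 probe sets. Rose and fell mean an adjusted p under 0.05. No minimum signal or fold was applied. The fit was checked on simulated data with independent genes and an equal spread in all arrays. That check does not cover correlated genes or an array that lies apart, as CP-Dox replicate 2 does. Precision is limited by the number of arrays.

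The members, gene lists, roles and motifs were chosen with earlier results of these data known. Values in all tumours are given for members past the threshold, the 5 lowest p per comparison, Ccna2, Cdk1, Plk1, Aurkb, Foxm1 and Mki67, the 3 narrowest and 3 widest ranges, and members of opposite sign. Those of Ect2, Ube2c and Ccnb2 were added after their values were seen. Alternatives were another quantile normalization, median centring, leaving out the dimmest 40% of genes, the mean of all probe sets, a trended robust variance, array weights, only the compared groups, a block for replicate number, and omission of arrays. Figures were drawn with matplotlib 3.10.9.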

Additional observations from a re-analysis of the deposited data

Results flagged for a closer look

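CP-Dox replicate 2 lay apart from the other 3 CP-Dox tumours, by a gap above the 95% critical value of Dixon's test, for 28 of the 51 genes, always below them, and for 3.47% of all genes. The gap to the nearest CP-Dox tumour, on the log2 scale, was 1.943 for Nusap1, 1.818 for Tpx2, 1.806 for Kif20a, 1.664 for Spc25, 1.624 for Ube2c, 1.588 for Pttg1, 1.572 for Kif11, 1.567 for Ttk, 1.556 for Prc1 and 1.553 for Ccnb2. It was 1.538 for Incenp, 1.536 for Nuf2, 1.508 for Kif2c, 1.498 for Ncapd2, 1.434 for Racgap1, 1.397 for Birc5, 1.387 for Ncaph, 1.275 for Ndc80, 1.273 for Plk1 and 1.255 for Smc2. It was 1.217 for Cdk1, 1.186 for Mad2l1, 1.147 for Hmmr, 1.139 for Bub1b, 1.130 for Cdc20, 0.946 for Cdc25c, 0.790 for Kif4 and 0.401 for Cdc25b. The means of the 51 genes, of the other G2/M genes and of the S phase genes lay 1.201, 0.977 and 0.989 below the nearest CP-Dox tumour there.

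In the Dox group, replicate 2 lay apart below the others for Hmmr (0.167), Ncapg (0.271) and Nek2 (0.346). In the PBS group, replicate 4 lay apart below the others for Aurka (0.349), Cks1b (0.175), Kif23 (0.551) and Prc1 (0.388). In all, 35 of 153 sets of a gene and a group were marked in this way (22.9%), where chance marks about 1 in 20, and the genes of a tumour are not independent. What sets these tumours apart was not tested.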

How the results depend on the processing

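The number of mitosis and G2/M genes that fell in CP-Dox against PBS, 7 as reported, was 15 with array weights, 2 with the compared groups alone, and 3 to 13 when single arrays were left out. With another quantile normalization, median centring, the dimmest 40% of genes left out, the mean of all probe sets or a trended robust variance it was between 7 and 9. Leaving out the dimmest 40% removed Mybl2, and 6 of the 7 genes were among the 8 that fell there. It was 0 without CP-Dox replicates 1 and 3, which have keratinocyte markers, and 0 without PBS replicates 3 and 4, which have muscle markers, both chosen after seeing the data and both with 2 tumours left in a group. All genes called in this comparison numbered 2665, 198, 2 and 127 under array weights, the compared groups alone and those 2 omissions, and 214 to 2363 without single arrays. For Dox against PBS, 2 of all genes were called with another quantile normalization and 2 with the compared groups alone. For CP-Dox against Dox, all genes called were 43 with another quantile normalization, 47 without the dimmest 40%, 1960 with array weights, 0 with the compared groups alone, 0 without CP-Dox replicates 1 and 3, and 1 to 1150 without single arrays. There, 7 members fell and 1 rose, Ube2c, with array weights, and 0 to 1 fell and 0 to 3 rose without single arrays.

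Same-numbered tumours did not vary together throughout (correlations of -0.31 to 0.51, 8 of 12 over 0.1, against 10 of 36 between other numbers, and 12 of 24 best matches with the own number among 4). All pairs of numbers 1 and 4 were over 0.1 but not all of those of numbers 2 and 3, and the numbers were not taken as pairs. Same-numbered tumours were still over 0.1 more often than others, and what the numbers share was not tested. With a replicate block, 9 members fell in CP-Dox against PBS, among them 6 of the 7 but not Foxm1. All genes called were then 995 there, against 691 in the main fit, and 8 in CP-Dox against Dox, against 28 in the main fit.

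Signs turned for genes with small differences. In CP-Dox against PBS, Bub3 was at -0.0174 with median centring, -0.0329 with the mean of all probe sets, -0.0489 without CP-Dox replicates 1 and 3, and -0.0358 to 0.160 without single arrays, and Wee1 was at -0.376 without CP-Dox replicates 1 and 3 and -0.00663 to 0.605 without single arrays. In Dox against PBS, Bub3 was at -0.00939 with the mean of all probe sets, and Wee1 at 0.0354 with array weights and -0.262 to 0.0392 without single arrays. In CP-Dox against Dox, Cdc25b was at -0.0173 with another quantile normalization, -0.0490 with median centring, -0.0860 without CP-Dox replicates 1 and 3 and -0.0353 to 0.110 without single arrays, Bub3 at 0.0540 with array weights and -0.109 to 0.0871 without single arrays, and Wee1 at -0.296 without CP-Dox replicates 1 and 3. Without single arrays Cdk1 was at -0.450 to 0.0372 there and Spc25 at -0.609 to 0.0212. The cause was not tested. Of 881 values of single named genes under the alternatives, 805 kept direction and side of the threshold, 42 were no longer called, 11 became called and 23 turned sign. Precision is limited by 4 tumours per group.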
